A study of Mus musculus with 8 samples.

Results

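The 34 genes described here make cholesterol and fatty acids or control that synthesis through the sterol regulatory element-binding proteins (SREBPs). They were chosen by symbol from a list of enzymes and regulators, and all 34 were among the 23467 genes of the expression table. They were divided by role into 17 sterol genes, 12 fatty acid genes and 5 control genes. The study cultured hepatoblasts, the bipotent progenitors of the embryonic liver, from E14.5 mouse livers of a B6;129 mixed strain, to follow gene expression after loss of *Lats1* and *Lats2* during differentiation. Control cells were labelled wild type, and L1L2_Alb cells were labelled Lats1-/-;Lats2f/fl;Alb-cre, in which *Lats1* is missing from every cell and *Lats2* is deleted by Cre under the Albumin promoter, thus only in cells that have used that promoter. RNA was sequenced from hepatoblasts cultured on collagen (iHB, 1 control and 1 L1L2_Alb library), from hepatocytes differentiated with 12.5 ng/ml oncostatin M for 5 days (iHP, 1 control and 2 L1L2_Alb libraries) and from biliary epithelial cells differentiated on Matrigel for 14 days (iBEC, 1 control and 2 L1L2_Alb libraries).

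SREBPs are made as membrane proteins of the endoplasmic reticulum, where SCAP escorts them to the Golgi when sterols are low and the INSIG proteins hold them back when sterols are high. The released fragment enters the nucleus and switches on the enzymes of lipid synthesis. The product of *Srebf2* acts mainly on cholesterol synthesis and the products of *Srebf1* mainly on fatty acid synthesis, and the liver is a main site of both. LATS2 has been reported to restrain SREBP, which is why the sterol and fatty acid genes were set beside each other here.

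Promoters of the genes were searched for the DNA elements through which SREBPs and their partner factors are known to act. RefSeq promoters of build GRCm38.p6, from 250 bases before to 50 bases after a listed start, were held for 27 of the 34 genes, that is 13 sterol, 9 fatty acid and 5 control genes. Both strands were searched for the SREBP element TCACNCCAC, the NF-Y box CCAAT, the Sp1 box GGGCGG and the E-box CACGTG, each motif on its own, so that matches of different motifs may overlap. These 6 promoters are shown because *Hmgcs1* held the SREBP element, *Mvk* held the most NF-Y boxes, *Dhcr7*, *Acss2* and *Fads2* were called in the comparisons below, and *Dhcr7* has separate starts that differ in NF-Y boxes. The capitals mark the SREBP element and the NF-Y boxes, which read CCAAT or, on the other strand, ATTGG.
*Hmgcs1*, GRCm38.p6 chr13:119690101-119690400, + strand: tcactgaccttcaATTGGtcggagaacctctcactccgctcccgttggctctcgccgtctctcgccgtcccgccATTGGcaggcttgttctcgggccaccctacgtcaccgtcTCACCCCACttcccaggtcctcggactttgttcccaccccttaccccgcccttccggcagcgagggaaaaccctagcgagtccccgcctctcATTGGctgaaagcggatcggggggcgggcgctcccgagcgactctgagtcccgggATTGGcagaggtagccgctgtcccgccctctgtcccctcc
*Mvk*, GRCm38.p6 chr5:114444019-114444318, + strand: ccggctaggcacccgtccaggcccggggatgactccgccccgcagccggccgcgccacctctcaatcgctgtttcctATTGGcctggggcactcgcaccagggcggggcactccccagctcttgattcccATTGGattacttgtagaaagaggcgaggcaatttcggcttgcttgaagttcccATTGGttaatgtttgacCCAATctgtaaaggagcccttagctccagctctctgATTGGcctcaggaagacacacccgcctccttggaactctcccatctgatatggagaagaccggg
*Dhcr7*, GRCm38.p6 chr7:143822917-143823216, + strand: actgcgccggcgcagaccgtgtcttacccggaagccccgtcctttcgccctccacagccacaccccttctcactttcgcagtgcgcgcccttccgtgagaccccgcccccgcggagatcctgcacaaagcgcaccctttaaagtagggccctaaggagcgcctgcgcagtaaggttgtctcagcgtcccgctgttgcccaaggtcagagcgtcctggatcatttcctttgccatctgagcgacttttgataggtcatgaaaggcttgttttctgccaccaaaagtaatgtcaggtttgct
*Dhcr7*, GRCm38.p6 chr7:143829964-143830263, + strand: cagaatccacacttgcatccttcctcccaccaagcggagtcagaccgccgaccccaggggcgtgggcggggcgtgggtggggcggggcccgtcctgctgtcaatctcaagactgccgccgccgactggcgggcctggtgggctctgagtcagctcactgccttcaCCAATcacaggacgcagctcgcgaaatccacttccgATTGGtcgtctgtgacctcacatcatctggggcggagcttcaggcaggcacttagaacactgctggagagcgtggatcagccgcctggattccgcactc
*Acss2*, GRCm38.p6 chr2:155517793-155518092, + strand: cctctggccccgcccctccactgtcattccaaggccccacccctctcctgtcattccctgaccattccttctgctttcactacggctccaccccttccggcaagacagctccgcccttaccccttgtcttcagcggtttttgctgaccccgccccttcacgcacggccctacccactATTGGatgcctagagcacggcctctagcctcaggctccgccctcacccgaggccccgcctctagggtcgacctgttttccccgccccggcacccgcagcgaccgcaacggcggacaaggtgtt
*Fads2*, GRCm38.p6 chr19:10101454-10101753, - strand: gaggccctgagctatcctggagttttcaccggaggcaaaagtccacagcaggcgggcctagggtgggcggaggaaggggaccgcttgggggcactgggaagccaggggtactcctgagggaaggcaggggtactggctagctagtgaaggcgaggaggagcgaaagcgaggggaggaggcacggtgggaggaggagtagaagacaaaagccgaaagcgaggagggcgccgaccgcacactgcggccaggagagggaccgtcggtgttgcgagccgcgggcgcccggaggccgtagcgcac

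An NF-Y box stood in the promoters of 12 of 13 sterol genes and of 6 of 9 fatty acid genes, shares of 92.3% and 66.7%, beside 41.1% of all 27025 genes with a promoter and 42.8% of the 9641 among them that were tested below. The Sp1 box stood in those of 12 of 13 sterol genes and 4 of 9 fatty acid genes, 92.3% and 44.4%, beside 38.2% of all genes and 67.1% of those tested, so that the fatty acid share lay above the first and below the second. The SREBP element was found in 1 of the 13 sterol promoters, that of *Hmgcs1*, 137 bases before the start, and in 0 of the 9 fatty acid promoters, beside 1.44% of all genes and 1.46% of those tested. The E-box stood in those of 2 of 13 sterol and 1 of 9 fatty acid genes, 15.4% and 11.1%, beside 8.09% of all genes and 11.7% of those tested. The 5 control genes held an NF-Y box in 4 cases, an Sp1 box in 5 and an E-box in 2. A match is a string of letters in this window and was not tested as a binding site, and *Fdps*, *Fdft1*, *Sqle*, *Stard4*, *Scd1*, *Scd2* and *Fads1* had no promoter to search.

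The targeted genes were read first. *Lats2* was at 9.23, 10.2 and 6.90 RPKM in control iHB, iHP and iBEC, and at 19.7 RPKM in iHB, 17.7 and 27.6 RPKM in iHP and 10.9 and 12.4 RPKM in iBEC in the libraries labelled L1L2_Alb. It was therefore higher and not lower under that label (log2 fold change 0.90, standard error 0.20, adjusted p = 0.0312 from limma with Benjamini-Hochberg adjustment, higher in 5 of 5 libraries), and *Lats1* was higher in 4 of 5 (0.44, adjusted p = 0.46). Values per gene do not separate the deleted exons from the others, so genotypes are given as labelled, and L1L2_Alb below means libraries carrying that label. Depth, recovered from the steps of short RNA genes, ran from 18436865 to 33229075 reads, and no gene of the set fell under 38 reads in any library for which whole reads could be recovered (27 of 34 genes). The labelled cell types were checked against markers. The sum of 7 biliary markers was 2626 RPKM in control iHB and 23480 RPKM in control iBEC, of which *Spp1* made 1706 and 23270 RPKM. *Sox9* was also higher in control iBEC (13.3 against 5.53 RPKM), while *Krt7*, *Krt19*, *Epcam*, *Cldn4* and *Cldn7* were lower, *Krt7* at 62.3 against 399.6 RPKM. The sum of 10 hepatocyte markers reached 32030 RPKM in control iBEC against 9817 to 23730 RPKM in the other libraries. In L1L2_Alb iHB the sum was 9817 RPKM, of which *Apoa1* made 8670 RPKM, against 2451 RPKM of *Apoa1* in control iHB. Every other marker of the list was lower in L1L2_Alb iHB than in control iHB, *Alb* at 524 against 2485 RPKM. In L1L2_Alb iHP the sum was 14260 and 13500 RPKM against 10590 RPKM in control iHB. *Apoa1* and *Fgb* were higher there than in control iHB in both libraries. All the other markers of the list, *Alb*, *Ttr*, *Apoa2*, *Hnf4a*, *Serpina1a*, *Tat*, *Cps1* and *Ttpa*, were lower in both. *Alb* was at 568 and 526 against 2485 RPKM. Markers of other cells moved with the label too. The sum of 5 neutrophil markers was 13740, 9259 and 3134 RPKM in control iHB, iHP and iBEC and 4387 RPKM in L1L2_Alb iHB, 442 and 43.2 RPKM in L1L2_Alb iHP and 98.0 and 2498 RPKM in L1L2_Alb iBEC. The sum of 8 mesenchymal markers was 4650, 2878 and 2648 RPKM in control iHB, iHP and iBEC and 1630, then 737 and 1194, then 3711 and 1664 RPKM in L1L2_Alb. The sum of 5 cycling genes was 137.9, 96.2 and 83.2 RPKM in the controls and 54.8, then 34.4 and 26.9, then 53.0 and 56.2 RPKM in L1L2_Alb, lower in 5 of 5 libraries. The sum of 5 erythroid markers was 173.6 RPKM in control and 38.3 RPKM in L1L2_Alb for iHB. All values are from bulk cultures, in which fewer cells of a type and less RNA per cell cannot be told apart.

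Sterol genes followed a different course through the cultures under each label. In controls their mean level on the log2(RPKM + 1) scale was 4.41 in iHB, 4.78 in iHP and 5.65 in iBEC. In L1L2_Alb it was 4.87 in iHB, 5.05 and 4.73 in iHP and 4.88 and 5.19 in iBEC. The control libraries thus held both the lowest mean, in iHB, and the highest, in iBEC, with every L1L2_Alb library between them. Control iHB held the lowest value of 11 of the 17 sterol genes, against 471 of all 13421 genes tested. Control iBEC held the highest value of 11 of 17, against 5.77% of all 13421 genes.

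By their mean, fatty acid genes kept the same order of labels in every culture. Their mean level was 4.39 in control iHB, 4.45 in control iHP and 5.23 in control iBEC. In L1L2_Alb it was 4.21 in iHB, 4.35 and 4.21 in iHP and 4.89 and 5.00 in iBEC. Within each stage the control mean stood above those of its L1L2_Alb libraries, and both labels were highest in iBEC. Single genes did not all follow this order. Above control were 3 of the 12 in L1L2_Alb iHB, 4 and 5 in iHP and 4 and 5 in iBEC. The mean of the sterol genes minus that of the fatty acid genes, on the same log2 scale, was 0.03 in control and 0.66 in L1L2_Alb iHB, 0.33 in control and 0.69 and 0.51 in L1L2_Alb iHP, and 0.42 in control and -0.01 and 0.19 in L1L2_Alb iBEC. The balance leaned further to sterol genes under L1L2_Alb in iHB and iHP and less so in iBEC. With 1 control library per stage these orders have no replicate check, and no test was made on the branch means.

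**Figure D1:**
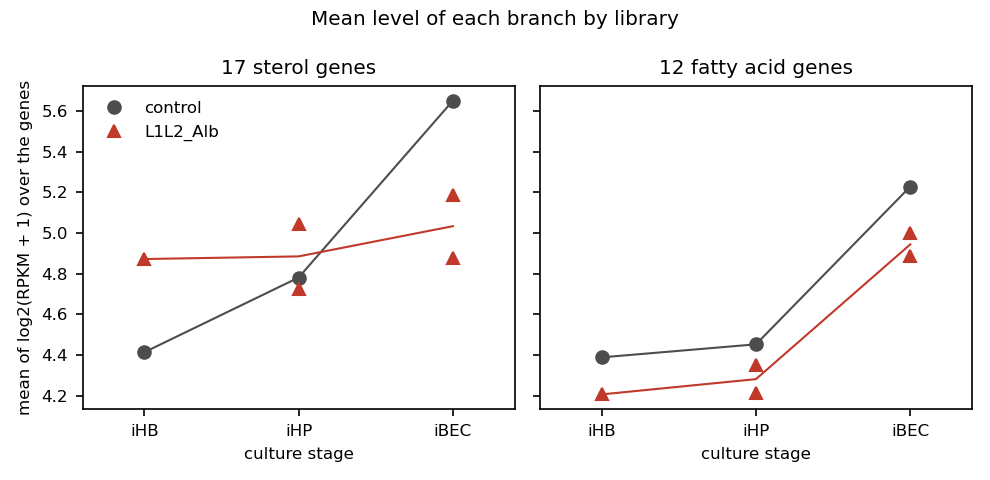
Mean of log2(RPKM + 1) over the 17 sterol genes (left) and the 12 fatty acid genes (right) in each library, by culture stage. Each point is 1 library, circles are control and triangles are libraries labelled L1L2_Alb, and lines join the mean of each label. The sterol mean runs from 4.41 to 5.65 through the control libraries and lies between 4.73 and 5.19 in all 5 L1L2_Alb libraries, while the fatty acid mean is highest in iBEC under both labels.

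The first comparison asked which genes differed between L1L2_Alb and control across the 3 stages together. *Dhcr7* and *Scd1* were lower under L1L2_Alb, each in 5 of 5 libraries, and these were the calls among the 34 genes. That is 2 of 34 genes against 9.57% of all 13421 genes called in either direction, and 2 lower against 3.37% of all genes called lower, so the number called is near the background. 9 of the 34 genes had an unadjusted p under 0.05, against 3524 of all genes. The median log2 fold change was -0.09 over the sterol genes, -0.24 over the fatty acid genes and 0.06 over all genes.

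*Dhcr7* encodes the reductase of the last step of cholesterol synthesis. It was at 8.57 RPKM in control and 4.85 RPKM in L1L2_Alb for iHB, 11.3 RPKM in control and 5.01 and 6.68 RPKM in L1L2_Alb for iHP, and 38.2 RPKM in control and 18.1 and 21.6 RPKM in L1L2_Alb for iBEC. Each L1L2_Alb library was below the control of its stage, although the iBEC libraries of L1L2_Alb were above the iHB and iHP controls. The log2 fold change was -0.84 (standard error 0.18, adjusted p = 0.0264 from limma with Benjamini-Hochberg adjustment). *Dhcr7* was the single one of 17 sterol genes lower in 5 of 5 libraries, against 10.1% of all genes. No sterol gene was higher in 5 of 5, against 22.9% of all genes.

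*Scd1* encodes the stearoyl-CoA desaturase that makes monounsaturated fatty acids. It was at 23.0 RPKM in control and 16.1 RPKM in L1L2_Alb for iHB, 53.3 RPKM in control and 28.4 and 16.9 RPKM in L1L2_Alb for iHP, and 190.3 RPKM in control and 72.5 and 84.0 RPKM in L1L2_Alb for iBEC. The control was the higher library in every stage, and the gap was widest in iBEC on the RPKM scale. The log2 fold change was -1.05 (standard error 0.23, adjusted p = 0.0292 from limma with Benjamini-Hochberg adjustment). *Scd2*, its paralog, was not lower: it was at 158.8, 122.8 and 155.6 RPKM in the controls of iHB, iHP and iBEC and at 208.1, then 169.0 and 125.5, then 124.1 and 141.0 RPKM in L1L2_Alb, and its labels differed by 0.11 on the log2 scale (adjusted p = 0.77 from limma with Benjamini-Hochberg adjustment). Reads that fit both paralogs could be split between them by the counting, which is not given in the sources used here.

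The calls depended on single libraries. Without the second L1L2_Alb iHP library both were kept. Without either L1L2_Alb iBEC library, without either of the control iHB and iHP libraries, or without the stages iHB or iHP, 0 of the 34 genes were called. Without the first L1L2_Alb iHP library *Scd1* alone was called. Without control iBEC, or without the iBEC stage, the call moved to *Ebp*, with a log2 fold change of 1.21 in place of 0.73.

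**Figure D2:**
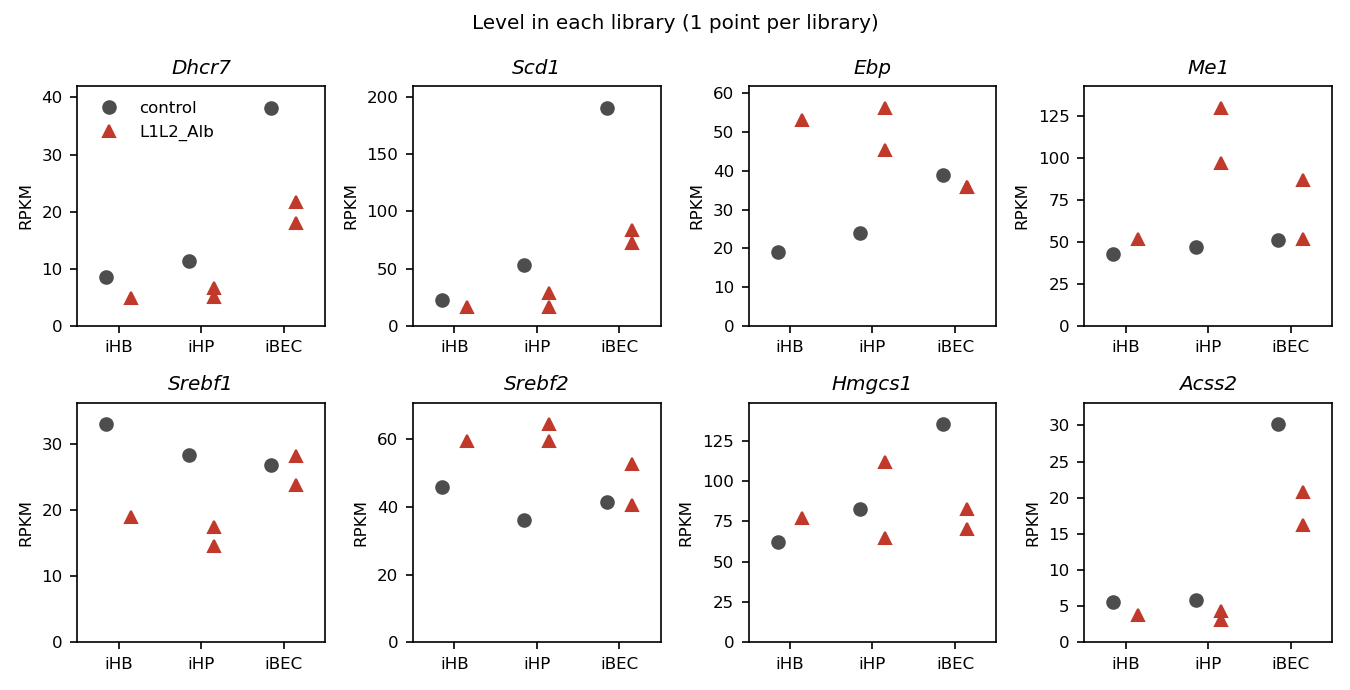
RPKM of 8 of the genes in each library by culture stage, with circles for control and triangles for libraries labelled L1L2_Alb, 1 point per library. *Dhcr7* and *Scd1* are lower under L1L2_Alb in every stage, *Me1* is higher in every L1L2_Alb library than in every control, and *Hmgcs1* is higher than control in iHB and lower in iBEC.

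The next comparison set each L1L2_Alb library against the control of its own stage, as a description without a test. Sterol genes were mostly higher than control in iHB and mostly lower in iBEC. In iHB 16 of the 17 were higher (median log2 difference 0.44), where 42.9% of all genes were higher (median -0.09). In iBEC 15 of the 17 were lower in both libraries and 0 were higher in both (median -0.76), where 15.3% of all genes were lower in both (median 0.25). In iHP 7 were higher and 4 lower in both libraries, and the 2 libraries had medians of 0.31 and -0.05. Of the 17 sterol genes 14 were higher in iHB and lower in both iBEC libraries, against 2.43% of all genes, and the sets rest on separate control libraries. No minimum difference was set for this count, which includes *Nsdhl* at 0.008 in iHB and *Stard4* at -0.02 in the second iBEC library. By the mean of the L1L2_Alb libraries of a stage, 16 sterol genes were higher than control in iHB, 11 in iHP and 0 in iBEC. Under upper-quartile scaling and quantile normalization the numbers in iHB and iBEC stayed at 16 and 0. The number in iHP became 9 and 8. These scalings moved the median of all genes in iBEC from 0.25 to 0.07 and -0.01.

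The 7 mevalonate genes, which build isoprenoid units from acetyl-CoA, were all higher than control in L1L2_Alb iHB. *Hmgcs1*, the synthase that makes HMG-CoA and the holder of the SREBP element shown above, was at 62.0 RPKM in control and 76.9 RPKM in L1L2_Alb for iHB, 82.9 RPKM in control and 111.8 and 64.6 RPKM in L1L2_Alb for iHP, and 135.2 RPKM in control and 70.6 and 82.9 RPKM in L1L2_Alb for iBEC. The 2 L1L2_Alb iHP libraries lay on either side of their control, and both iBEC libraries lay below theirs. *Fdps*, the farnesyl diphosphate synthase, had the highest level of the sterol genes, with 78.1, 86.2 and 218.8 RPKM in control iHB, iHP and iBEC against 111.1, then 103.6 and 94.3, then 127.8 and 157.5 RPKM in L1L2_Alb. The iHB difference ran from 0.12 for *Pmvk*, the phosphomevalonate kinase, to 0.95 for *Mvd*, the decarboxylase that follows it. In iBEC *Acat2*, which joins acetyl-CoA units, differed by -1.26 and -0.79, *Idi1*, the isopentenyl diphosphate isomerase, by -1.11 and -0.70, and *Mvk*, the mevalonate kinase, by -0.35 and -0.08. *Mvd* was the exception, with -0.50 in the first library and 0.08 in the second. *Pmvk* was lower than control in both iHP libraries, by -0.59 and -0.67, and in both iBEC libraries, by -1.05 and -0.78.

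Of the 9 genes from squalene to cholesterol all but *Dhcr7* were higher than control in L1L2_Alb iHB, and all but *Fdft1* were lower in both iBEC libraries. *Nsdhl*, a sterol dehydrogenase of the demethylation steps, was at 16.6 RPKM in control and 16.7 RPKM in L1L2_Alb for iHB, 21.2 RPKM in control and 20.9 and 16.0 RPKM in L1L2_Alb for iHP, and 68.3 RPKM in control and 24.2 and 38.5 RPKM in L1L2_Alb for iBEC. Its labels were level in iHB and well apart in iBEC. *Ebp*, the sterol isomerase, went furthest the other way: it was at 19.2 RPKM in control and 53.1 RPKM in L1L2_Alb for iHB, 24.0 RPKM in control and 56.3 and 45.3 RPKM in L1L2_Alb for iHP, and 38.9 RPKM in control and 35.9 and 35.9 RPKM in L1L2_Alb for iBEC. Both early stages were higher under L1L2_Alb and iBEC was not. *Hsd17b7*, a keto reductase of the same pathway, was at 7.90 RPKM in control and 18.3 RPKM in L1L2_Alb for iHB, 10.9 RPKM in control and 24.0 and 11.6 RPKM in L1L2_Alb for iHP, and 13.3 RPKM in control and 8.90 and 12.2 RPKM in L1L2_Alb for iBEC. *Ebp* and *Hsd17b7* were the 2 of 34 genes at least 2-fold higher in L1L2_Alb iHB, against 5.60% of all genes.

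*Fdft1*, the squalene synthase, differed by 0.69 in iHB, by 0.71 and 0.40 in iHP and by -0.14 and 0.01 in iBEC. *Sqle*, the squalene epoxidase, differed by 0.44 in iHB and by -0.86 and -0.67 in iBEC, and *Cyp51*, the lanosterol demethylase, by 0.60 in iHB and by -1.07 and -0.67 in iBEC. *Lss*, the lanosterol synthase, differed by 0.27 in iHB and was lower in the other 4 libraries, by -0.13 to -0.95. *Tm7sf2*, a sterol reductase, went opposite ways within iHP, with -0.59 in the first library and 0.21 in the second, and was lower in iBEC by -1.42 and -0.82. *Stard4*, which carries cholesterol between membranes, was higher in iHB by 0.25 and in iHP by 0.79 and 0.86, and differed by -0.15 and -0.02 in iBEC.

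**Figure D3:**
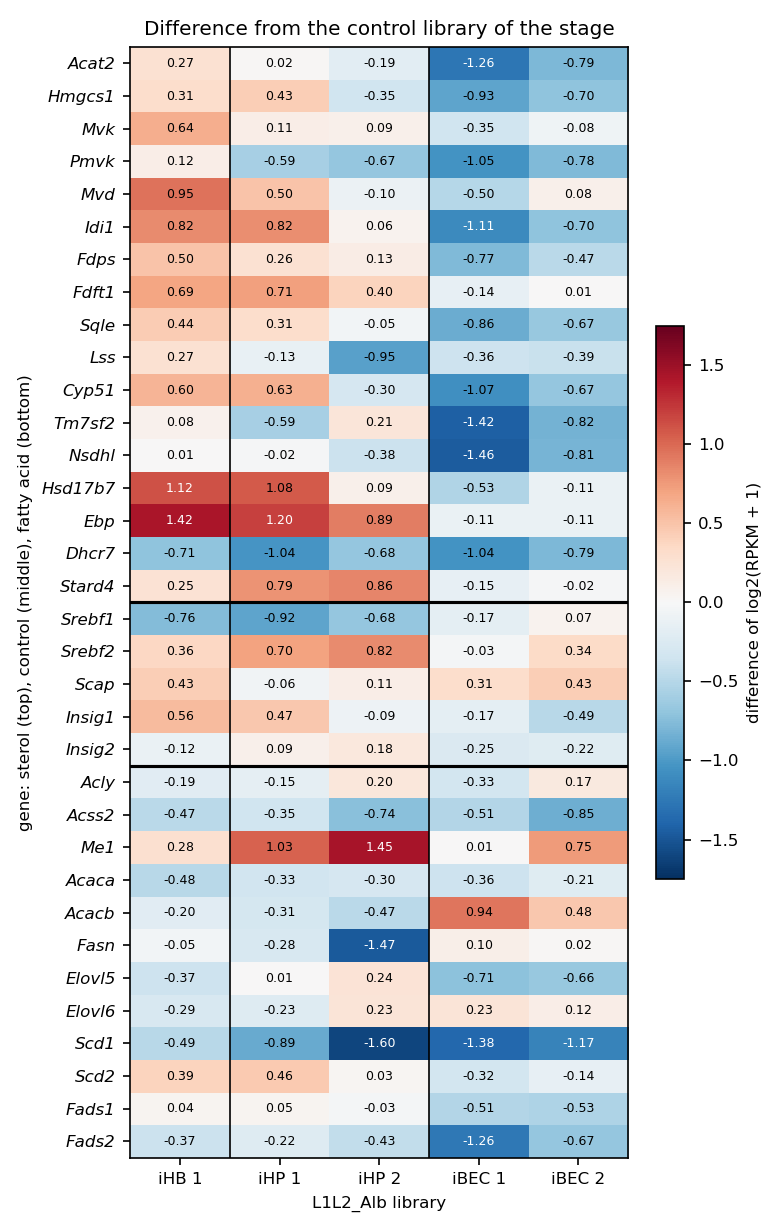
Difference of log2(RPKM + 1) between each library labelled L1L2_Alb and the control library of its stage, for the 34 genes (rows) in 5 libraries (columns), red for higher and blue for lower than control. In iHB 16 of 17 sterol genes (top block) are above 0, in iBEC 17 of 17 are below 0 in the first library and 15 of 17 in the second, and *Dhcr7*, *Acss2*, *Acaca*, *Scd1* and *Fads2* are below 0 in all 5.

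The moderated F test asked whether the difference between labels itself differed between stages. It called 0 of the 34 genes, and 0% of all 13421 genes passed (smallest adjusted p = 0.122 from limma with Benjamini-Hochberg adjustment). At an unadjusted p under 0.05 there were 733 genes, and *Ebp* was the 1 of the 34 among them (adjusted p = 0.877). The test had 2 residual degrees of freedom, so the turn between iHB and iBEC is a description of these libraries. The part of other cell types in it was not tested. Neutrophil, mesenchymal, erythroid and cycling sums were lower under L1L2_Alb in iHB, as given above. So was every hepatocyte marker of the list but *Apoa1*. In iBEC 5 of 5 neutrophil markers were lower in the first L1L2_Alb library and 4 of 5 in the second, and summed hepatocyte markers were 32030 RPKM in control iBEC and 17850 and 17720 RPKM in L1L2_Alb iBEC. The sum of 7 macrophage markers went up there, from 1584 RPKM in control iBEC to 3205 and 3619 RPKM in L1L2_Alb iBEC. It was 2394 RPKM in control and 2224 RPKM in L1L2_Alb for iHB, and 1547 RPKM in control and 761.7 and 1583 RPKM in L1L2_Alb for iHP. *Lyz2* made 1622 and 1189 RPKM of the iHB sums, and *Lyz2* and *Emr1* were the markers lower in L1L2_Alb iHB. *Cd68*, *Csf1r*, *C1qa*, *C1qb* and, near 0, *Clec4f* were higher there, *C1qa* at 333.8 against 210.7 RPKM.

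Among the 5 control genes the RNAs of the 2 SREBPs stood apart by label in iHB and iHP. *Srebf1* was at 32.9 RPKM in control and 19.0 RPKM in L1L2_Alb for iHB, 28.4 RPKM in control and 14.53 and 17.4 RPKM in L1L2_Alb for iHP, and 26.8 RPKM in control and 23.8 and 28.2 RPKM in L1L2_Alb for iBEC. It was lower under L1L2_Alb in both early stages and lay on either side of the control in iBEC. *Srebf2* was at 46.0 RPKM in control and 59.4 RPKM in L1L2_Alb for iHB, 36.0 RPKM in control and 59.3 and 64.4 RPKM in L1L2_Alb for iHP, and 41.6 RPKM in control and 40.6 and 52.7 RPKM in L1L2_Alb for iBEC. The *Srebf2* level was above its control in 4 of 5 libraries. The ratio of *Srebf2* to *Srebf1* was 1.40 in control and 3.13 in L1L2_Alb iHB, 1.27 in control iHP against 4.08 and 3.71, and 1.55 in control iBEC against 1.71 and 1.87. Every L1L2_Alb library had a higher ratio than all 3 controls. Across the stages neither gene passed the test (*Srebf1* log2 fold change -0.52, adjusted p = 0.148, and *Srebf2* 0.43, adjusted p = 0.182, from limma with Benjamini-Hochberg adjustment), and a ratio shows an unequal change, not which gene moved.

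The escort and retention factors differed less. *Scap* was at 23.5, 24.7 and 26.3 RPKM in control iHB, iHP and iBEC and at 32.0, then 23.7 and 26.8, then 33.0 and 35.9 RPKM in L1L2_Alb. *Insig1* was at 19.4 RPKM in control and 29.1 RPKM in L1L2_Alb for iHB, 24.3 RPKM in control and 33.9 and 22.8 RPKM in L1L2_Alb for iHP, and 41.2 RPKM in control and 36.5 and 29.1 RPKM in L1L2_Alb for iBEC. *Insig1* is itself switched on by SREBPs, and like the sterol genes it was higher than control in iHB and lower in both iBEC libraries. *Insig2* was at 12.7, 13.8 and 24.1 RPKM in the controls and at 11.7, then 14.8 and 15.8, then 20.1 and 20.6 RPKM in L1L2_Alb, and thus followed the stage more than the label. The log2 fold changes between labels were 0.26, 0.10 and -0.07 for *Scap*, *Insig1* and *Insig2*, with adjusted p of 0.36, 0.824 and 0.839 from limma with Benjamini-Hochberg adjustment.

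Fatty acid genes differed from control in both directions, and 5 of 12 lay on opposite sides of it in L1L2_Alb iHB and iBEC. Of these 2 were higher in iHB and lower in iBEC, as were 2.43% of all genes. The other 3 went the other way, as did 28.5% of all genes. Their median difference was -0.24 in iHB, -0.16 in iHP and -0.26 in iBEC, and 4 of 12 were lower in 5 of 5 L1L2_Alb libraries (*Acss2*, *Acaca*, *Scd1* and *Fads2*), against 10.1% of all genes. Higher in 5 of 5 was *Me1* alone, against 22.9% of all genes. *Me1*, the malic enzyme that supplies NADPH, was at 42.5 RPKM in control and 52.0 RPKM in L1L2_Alb for iHB, 47.1 RPKM in control and 97.1 and 129.8 RPKM in L1L2_Alb for iHP, and 51.2 RPKM in control and 51.6 and 86.8 RPKM in L1L2_Alb for iBEC. It was the only gene of the set whose labels did not overlap over the 8 libraries, with 51.2 RPKM as the highest control and 51.6 RPKM as the lowest L1L2_Alb value, a pattern that 1232 of the 13421 genes showed in this direction. It was also the 1 of 34 genes at least 2-fold higher in both iHP libraries, against 4.64% of all genes. It did not pass the test (log2 fold change 0.67, adjusted p = 0.146 from limma with Benjamini-Hochberg adjustment).

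The other suppliers of substrate were *Acly*, which cuts citrate to acetyl-CoA, and *Acss2*, which makes acetyl-CoA from acetate. *Acly* lay between 62.2 and 88.1 RPKM in all 8 libraries, with labels overlapping. *Acss2* was at 5.53 RPKM in control and 3.73 RPKM in L1L2_Alb for iHB, 5.83 RPKM in control and 4.35 and 3.10 RPKM in L1L2_Alb for iHP, and 30.2 RPKM in control and 20.8 and 16.3 RPKM in L1L2_Alb for iBEC. Each L1L2_Alb library was below the control of its stage, and the difference did not pass the test (log2 fold change -0.57, adjusted p = 0.0992 from limma with Benjamini-Hochberg adjustment).

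The 3 genes of chain synthesis were below control in L1L2_Alb iHB and in both L1L2_Alb iHP libraries and parted in iBEC. *Acaca*, the cytosolic acetyl-CoA carboxylase, lay between 6.34 and 11.4 RPKM and differed from control by -0.21 to -0.48 in the 5 L1L2_Alb libraries. *Acacb*, the carboxylase of the mitochondrial surface, was the lowest gene of the set, at 0.49, 0.68 and 1.16 RPKM in control iHB, iHP and iBEC and at 0.30, then 0.35 and 0.21, then 3.12 and 2.00 RPKM in L1L2_Alb. It was below control in iHB and iHP and above it in iBEC. *Fasn*, the fatty acid synthase, lay between 22.0 and 32.4 RPKM in 7 libraries and at 9.09 RPKM in the second L1L2_Alb iHP library, which differed from its control by -1.47 while the first differed by -0.28.

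The elongases and desaturases that remodel the chains split as well. *Fads2*, a desaturase of polyunsaturated fatty acids, was at 40.7 RPKM in control and 31.2 RPKM in L1L2_Alb for iHB, 29.2 RPKM in control and 24.8 and 21.4 RPKM in L1L2_Alb for iHP, and 85.5 RPKM in control and 35.2 and 53.2 RPKM in L1L2_Alb for iBEC. *Fads1*, its neighbour in the pathway, was level in iHB and iHP, with differences from -0.03 to 0.05, and lower in iBEC by -0.51 and -0.53. *Elovl5*, an elongase of the same chains, differed by -0.37 in iHB, 0.01 and 0.24 in iHP and -0.71 and -0.66 in iBEC. *Elovl6*, which elongates saturated chains, lay between 4.43 and 8.91 RPKM and differed from its controls by -0.29 to 0.23. *Scd1* was the 1 of 34 genes at least 2-fold lower in both L1L2_Alb iBEC libraries, against 1.62% of all genes.

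The stage comparisons asked which genes differed between cultures with the labels considered jointly. No gene of the set was called between iHP and iHB, where 0% of all genes passed. At an unadjusted p under 0.05 that comparison had 1158 genes, and 1 of the 34, *Scd1* (0.77 on the log2 scale, adjusted p = 0.491 from limma with Benjamini-Hochberg adjustment). The median log2 fold change was 0.26 over the sterol genes, 0.04 over the fatty acid genes and -0.15 over all genes.

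Biliary culture went with higher *Scd1*, *Acss2* and *Dhcr7*. These 3 of 34 genes were called higher in iBEC than in iHB, against 2.94% of all genes called higher and 5.72% called in either direction, and none was called lower. The log2 fold changes were 2.57 for *Scd1* (standard error 0.29, adjusted p = 0.00275), 2.13 for *Acss2* (0.24, adjusted p = 0.00275) and 1.92 for *Dhcr7* (0.22, adjusted p = 0.00313), from limma with Benjamini-Hochberg adjustment. All 3 kept their calls in each of 14 alternative settings. 15 of the 34 had an unadjusted p under 0.05, all of them higher in iBEC, against 3357 of the 13421 genes in either direction. The median was 0.50 over the sterol genes, 0.65 over the fatty acid genes and -0.25 over all genes, and 15 of 17 sterol and 11 of 12 fatty acid genes had a value above 0, as did 29.3% of all genes. Summed hepatocyte markers were highest in iBEC under both labels, at 32030 RPKM in control iBEC against 10590 RPKM in control iHB. Under L1L2_Alb the sums were 17850 and 17720 RPKM in iBEC against 9817 RPKM in iHB. *Apoa1* made 8670 RPKM of the L1L2_Alb iHB sum and was lower in iBEC, at 4170 and 2889 RPKM. Every other marker of the list was higher in both L1L2_Alb iBEC libraries than in L1L2_Alb iHB, *Alb* at 5499 and 3357 against 524 RPKM. The part of hepatocyte markers in these calls was not tested.

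**Figure D4:**
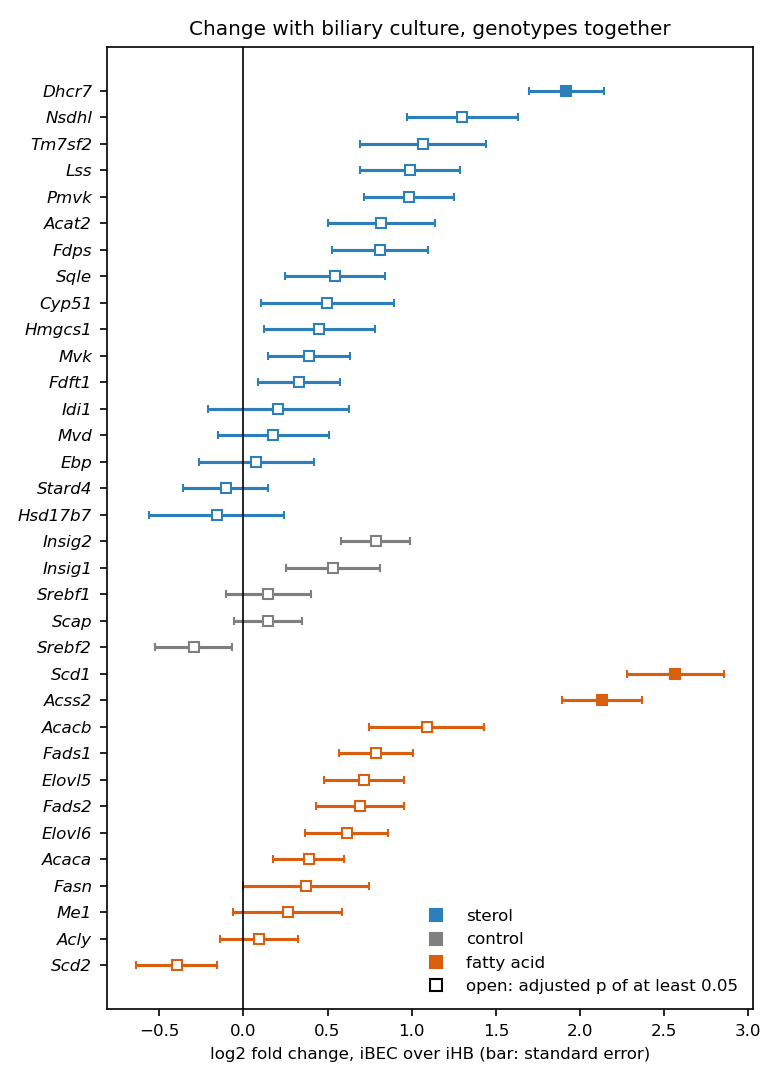
Log2 fold change of iBEC over iHB from the fit of all 8 libraries, with the label as a covariate, for the 17 sterol (blue), 5 control (grey) and 12 fatty acid genes (orange); bars are standard errors. Filled squares mark *Dhcr7*, *Acss2* and *Scd1*, with an adjusted p under 0.05 from limma, and 30 of 34 genes lie above 0.

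Against iHP, 5 of 34 genes were called higher in iBEC, against 2.45% of all genes. *Acss2* (log2 fold change 2.10, adjusted p = 0.0052), *Scd1* (1.80, 0.0124) and *Dhcr7* (1.63, 0.00761) were joined by *Fads1* (1.11, adjusted p = 0.0229) and *Fads2* (1.09, adjusted p = 0.0415), all from limma with Benjamini-Hochberg adjustment. Of the 5 called genes 4 are fatty acid genes and 1 is a sterol gene. *Acss2* and *Dhcr7* kept these calls in all 16 alternatives, *Scd1* in 15, *Fads1* in 10 and *Fads2* in 5. *Scd1* lost its call without the second L1L2_Alb iBEC library (adjusted p = 0.0507 from limma with Benjamini-Hochberg adjustment). *Fads1* was at 18.4, 14.4 and 41.6 RPKM in control iHB, iHP and iBEC and at 19.1, then 14.96 and 14.1, then 28.9 and 28.4 RPKM in L1L2_Alb. Its 3 iBEC libraries lay above the other 5.

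The difference between iBEC and the other cultures was also read within each label, without a test. In controls 17 of 17 sterol genes were higher in iBEC than in iHB (median log2 difference 1.26), where 20.2% of all genes were (median -0.44). In L1L2_Alb 10 of 17 were higher (median 0.02), where 40.9% of all genes were (median -0.12). The fatty acid genes had 11 of 12 higher under both labels, with medians of 0.44 in controls and 0.52 in L1L2_Alb. Quantile normalization gave sterol medians of 1.70 in controls and 0.21 in L1L2_Alb, and fatty acid medians of 0.82 and 0.68. It also moved the background in controls. There 6262 of all 13421 genes were then higher in iBEC than in iHB (median -0.04), and 17 of 17 sterol genes still were. In L1L2_Alb 5959 of all genes were higher (median -0.07), and 12 of 17 sterol genes. Without this normalization the contrast against iHP gave sterol medians of 0.70 in controls and -0.01 in L1L2_Alb and fatty acid medians of 0.35 and 0.56. Since the control value of each stage is a single library, the sterol course of the controls rests on control iHB and control iBEC. Without control iBEC the sterol median of the fit of iBEC over iHB was 0.14 in place of 0.50, and without control iHB it was 0.13.

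Single genes show where the labels shared this difference and where they did not. *Dhcr7* differed between iBEC and iHB by 2.03 in controls and 1.83 in L1L2_Alb, *Acss2* by 2.25 and 2.04, and *Scd1* by 3.00 and 2.21. *Nsdhl* differed by 1.98 and 0.84, *Tm7sf2* by 1.78 and 0.58, *Acat2* by 1.58 and 0.29 and *Fdps* by 1.47 and 0.35. *Idi1* differed by 1.23 in controls and -0.50 in L1L2_Alb, *Ebp* by 0.98 and -0.55 and *Hsd17b7* by 0.68 and -0.76. The 3 genes called in the fit were higher in iBEC under both labels, while the last 3 genes went opposite ways.

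Of 26 further genes of lipid synthesis, transport and storage, 23 were tested, and 1 was called higher and 2 were called lower under L1L2_Alb, near the 9.57% of all genes called in either direction. *Npc1*, which exports cholesterol from lysosomes, was at 36.4 RPKM in control and 94.0 RPKM in L1L2_Alb for iHB, 28.3 RPKM in control and 56.0 and 46.7 RPKM in L1L2_Alb for iHP, and 23.0 RPKM in control and 39.1 and 33.7 RPKM in L1L2_Alb for iBEC. Each L1L2_Alb library was above the control of its stage (log2 fold change 0.90, standard error 0.18, adjusted p = 0.0231 from limma with Benjamini-Hochberg adjustment). *Gpam*, the acyltransferase that starts triglyceride synthesis, was at 28.5 RPKM in control and 9.74 RPKM in L1L2_Alb for iHB, 37.4 RPKM in control and 16.1 and 16.0 RPKM in L1L2_Alb for iHP, and 39.6 RPKM in control and 23.2 and 20.9 RPKM in L1L2_Alb for iBEC. All 5 L1L2_Alb libraries lay below all 3 controls (log2 fold change -1.12, standard error 0.17, adjusted p = 0.00882 from limma with Benjamini-Hochberg adjustment). Such a gap in this direction was shown by 496 of the 13421 genes. *Mlxipl*, which encodes the carbohydrate-responsive factor ChREBP, was lower in 5 of 5 libraries as well (-1.71, standard error 0.34, adjusted p = 0.0214 from limma with Benjamini-Hochberg adjustment).

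By stage, *Mlxipl* and *Thrsp*, a gene of lipogenic tissue, were called higher in iBEC than in iHB (log2 fold changes 2.31 and 3.46, adjusted p = 0.02 and 0.00208 from limma) and than in iHP. These were 2 of 23 genes, against 2.94% of all genes called higher over iHB and 2.45% over iHP. In either direction 5.72% of all genes were called between iBEC and iHB. *Npc1* was called lower in iBEC than in iHB (-1.04, adjusted p = 0.0381 from limma), and 0 of the 23 were called between iHP and iHB. Of 6 adipocyte markers, *Adipoq*, *Plin1* and *Lep* were at or near 0 in all 8 libraries, at most 0.087 RPKM. *Pparg* lay between 1.97 and 5.46 RPKM and *Cidec* between 0.25 and 3.93 RPKM. *Fabp4*, a fatty acid binding protein of fat cells that other cells express too, was at 50.3 RPKM in control and 16.8 RPKM in L1L2_Alb for iHB, 192 RPKM in control and 75.4 and 27.7 RPKM in L1L2_Alb for iHP, and 134 RPKM in control and 230.9 and 180.7 RPKM in L1L2_Alb for iBEC. The part of these markers in the results was not tested.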

How the data were processed

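RNA of the 8 libraries was prepared with a TruSeq RNA kit. The authors deposited 1 RPKM value per gene and library, scaled by gene length and library size, and the unit was settled from the whole-read steps of short RNA genes. The submitters' processing notes name Bowtie 0.12.2 and mm8, and the counting method and annotation are not given in the sources used here. Of 23471 entries, 4 of 2 repeated symbols were left out. The test used log2(RPKM + 1) for the 13421 genes whose mean was 1 RPKM or more. Stage and genotype were terms of a limma fit with trended eBayes (limma 3.58.1, R 4.3.3). P-values are two-sided, adjusted by the Benjamini-Hochberg method over all genes tested, with a threshold of 0.05. A moderated F on a fit of 6 conditions tested whether genotype effects differed between stages. No count model was run, since the values are not counts, and a fold change on the log2(RPKM + 1) scale understates the change of low genes.

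The members, lists and tests were chosen with earlier results of these data known. Each of the 34 genes was described, with its value in every library for called genes, control genes and the largest changes, and *Hmgcs1*, *Fdps*, *Scd2*, *Acacb* and *Fads1* were added after their values were seen. A list is given by its counts and median beside those of all genes. Results of 4 further genes are not reported here. Nothing states whether libraries of a condition came from separate embryos or cultures, so the spread between replicate libraries may be technical. The fit of stage and genotype had 4 residual degrees of freedom, against 2 in the fit of 6 conditions. Its p-values thus measure that spread together with any difference of the genotype effect between stages. Alternatives were a pseudocount of 0.1, upper-quartile scaling, quantile normalization, other filters, thresholds and fits, and leaving out libraries or stages. Tables and figures were made in Python 3.11.15 (matplotlib 3.10.9, numpy 2.4.6, pandas 2.3.3), and the fit was tested on simulated data.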

Additional observations from a re-analysis of the deposited data

Results flagged for a closer look

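Genes were noted where every L1L2_Alb library of a stage lay on the opposite side of control from every L1L2_Alb library of another stage. Between iHB and iBEC these were 14 sterol genes, all higher in iHB and lower in iBEC, 5 fatty acid genes (*Scd2* and *Fads1* higher in iHB, and *Acacb*, *Fasn* and *Elovl6* lower in iHB) and 1 control gene, *Insig1*, against 2.43% of all genes higher in iHB and lower in iBEC and 28.5% the other way. Between iHP and iBEC they were 6 sterol genes (*Mvk*, *Idi1*, *Fdps*, *Hsd17b7*, *Ebp* and *Stard4*, all higher in iHP), 4 fatty acid genes (*Elovl5*, *Scd2*, *Acacb* and *Fasn*) and 1 control gene, *Insig2*. Of all genes 1.57% were higher in iHP and lower in iBEC, and 14.45% went the other way. Between iHB and iHP they were 3 sterol genes (*Pmvk*, *Lss* and *Nsdhl*, higher in iHB), 1 fatty acid gene, *Elovl5*, and 1 control gene, *Insig2*. Of the 34 genes 8.8% were higher in iHB and lower in iHP, against 3.52% of all genes. The other way went 5.9% of the 34, against 8.3% of all genes. These counts rest on 1 control library per stage and were not tested as counts, and the moderated F test of the difference between stages called 0 genes. They had no minimum difference, so genes nearly level with control in a stage, such as *Nsdhl* in iHB, are included.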

How the results depend on the processing

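The fold changes of *Acat2*, *Acss2*, *Dhcr7*, *Ebp*, *Fads1*, *Fads2*, *Me1*, *Pmvk*, *Scd1*, *Srebf1* and *Srebf2* were recomputed for the comparisons in which each was called or changed most, and none reversed. The number of genes of the set called between genotypes was 2, became 1 with no filter on low values, with a change of at least 2-fold and without the iBEC stage, became 0 without the iHB stage or without the iHP stage, and ranged from 0 to 2 when single libraries were left out, controls included (an alternative chosen after seeing the data). *Dhcr7* and *Scd1* each kept this call in 7 of 16 alternatives, with adjusted p from 0.0176 to 0.188 and from 0.0234 to 0.213 (limma, Benjamini-Hochberg). For iBEC against iHB the number was 3, became 7 under upper-quartile scaling and under quantile normalization and 8 at an adjusted p under 0.1, and ranged from 3 to 6 with a library left out. For iBEC against iHP it was 5, became 8 at an adjusted p under 0.1 and 3 in the L1L2_Alb libraries alone, and ranged from 2 to 5 with a library left out. Sterol medians between genotypes were -0.32 without iHB and 0.33 without iBEC, ranging from -0.32 to 0.33 with a library left out. The sterol median in iBEC was -1.02 under quantile normalization. For iBEC against iHB it was 0.774 under upper-quartile scaling and 0.799 under quantile normalization, and 0.134 to 0.702 with a library left out. Against iHP it was -0.0109 in the L1L2_Alb libraries alone and -0.0309 to 0.486 with a library left out, and for iHP against iHB -0.0842 to 0.37. Under upper-quartile scaling the fatty acid medians were -0.35 between genotypes, -0.26 in iHP, -0.46 in iBEC, 0.16 for iHP against iHB, 0.91 for iBEC against iHB and 0.75 for iBEC against iHP, and under quantile normalization they were -0.12 in iHB, -0.53 in iBEC, 0.18, 0.88 and 0.70 for the same 3 stage comparisons. A pseudocount of 0.1 gave -0.36 in iHB, and a mean of at least 5 RPKM gave 0.0029 in iHP and 0.41 for iBEC against iHP. With a library left out the fatty acid medians ran from 0.0361 to 0.139 for iHP against iHB, 0.528 to 0.674 for iBEC against iHB and 0.453 to 0.715 for iBEC against iHP.

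The 2 L1L2_Alb iHP and 2 L1L2_Alb iBEC libraries share replicate numbers only as names. The correlation of their replicate differences was -0.02, and with the replicate block 4 genes of the set were called between these stages, against 3 without it, with a sterol median of -0.0109 in both. The lowest count recovered was 38 reads, over the 27 of 34 genes with whole reads. Which of depth and replicate number limits the calls was not tested.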
